A study of Mus musculus with 6 samples.

Results

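The 10 genes described here, of 32286 features counted, are 4 transcription factors of fat cell formation (Cebpa, Cebpb, Cebpd and Pparg), 3 genes of fatty acid release, entry and binding (Lpl, Cd36 and Fabp4), the lipoprotein component Apoe, the lipid droplet coat Plin2 and the fat cell hormone Adipoq. They were taken by their gene symbols, and their transcripts were counted cell by cell in injured quadriceps muscle of mice. All 6 mice carried Cdh5-CreERT2, a tamoxifen-dependent recombinase driven by an endothelial promoter, and the R26R-tdTomato reporter, and in all of them the muscle was damaged with cardiotoxin and taken 5 days later. In 3 mice clodronate liposomes (CLL), which ablate circulating monocytes only in part, were injected into a vein 1 day before and 2 days after the damage. The other 3 received liposomes filled with PBS on the same days (SHAM). The series' design text calls the replicates of each group independent mice. Liposome dose, the sex and age of the mice and the timing of tamoxifen were not given in the sources used here.

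Fat cell formation runs through a relay of transcription factors. C/EBPβ and C/EBPδ, made from Cebpb and Cebpd, are induced early by hormonal and inflammatory signals and help to switch on PPARγ (Pparg) and C/EBPα (Cebpa), which then turn on the genes of the mature fat cell. The same factors work outside fat: C/EBPα and C/EBPβ in myeloid cells, and PPARγ in capillary endothelium and macrophages. Lipoprotein lipase (Lpl) frees fatty acids from circulating triglycerides, CD36 takes them and oxidised lipoproteins up, FABP4 binds them inside the cell, perilipin 2 (Plin2) coats the droplets in which they are stored, and apolipoprotein E (Apoe) carries lipid away from macrophages. In regenerating muscle, fibro-adipogenic progenitors can turn into fat cells, and macrophages clear lipid-rich debris.

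On build mm10 the annotation places the transcription factor genes Cebpa (ENSMUSG00000034957) at chr7:35119293-35121928 (plus strand), Cebpb (ENSMUSG00000056501) at chr2:167688915-167690418 (plus strand), Cebpd (ENSMUSG00000071637) at chr16:15887286-15891031 (plus strand) and Pparg (ENSMUSG00000000440) at chr6:115360951-115490399 (plus strand). The uptake genes are Lpl (ENSMUSG00000015568) at chr8:68880491-68907448 (plus strand), Cd36 (ENSMUSG00000002944) at chr5:17781690-17888801 (minus strand) and Fabp4 (ENSMUSG00000062515) at chr3:10204088-10208576 (minus strand). The others are Apoe (ENSMUSG00000002985) at chr7:19696109-19699188 (minus strand), Plin2 (ENSMUSG00000028494) at chr4:86648386-86670060 (minus strand) and Adipoq (ENSMUSG00000022878) at chr16:23146536-23158028 (plus strand). The counts are given per gene, so they do not separate its transcripts.

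The libraries differed widely. They held 23873416 to 94841003 unique molecular identifiers (UMIs, counts of single transcripts), and 1848 to 19346 cells were kept in each, 46685 in all, with medians of 880 to 13820 UMIs per cell. Libraries CLL 2 and SHAM 3 stood apart: clusters that entered no class (clusters 4 and 6, which no marker list named, and clusters 3, 5 and 9, which were left out afterwards) took 51.5% of the cells of CLL 2 and 80.7% of those of SHAM 3, against 4.03% to 15.7% elsewhere. Pairs of libraries shared 2 to 97 cell barcodes. Cells were clustered without the 10 genes and classed from fixed marker lists, so class names rest on transcripts alone. In the macrophage, endothelial, fibroblast and myogenic classes at most 1 of the defining markers was at 0 in any library. Clusters 3 and 5, which carried the tenocyte list but were led by ribosomal-RNA-overlapping or macrophage transcripts, were kept out of the fibroblast class; of the cells just counted they held 41.2% and 3.91% of kept cells in CLL 2 and at most 4.60% in any other library. Cluster 9, myogenic but led by macrophage transcripts, was kept out too and held 2.23% of cells in SHAM 1 and at most 0.977% elsewhere.

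Where the 10 genes were expressed is shown by the plot of their levels by class and library. Levels are given as CPM, the UMIs of a gene scaled to a fixed total of all UMIs of its class in a library. Among the 5 classes with at least 20 cells in every library (macrophage-like, endothelial-like, fibroblast-like, myogenic-like and dendritic-like cells), Cebpa, Cebpb, Lpl, Apoe and Plin2 were highest in macrophage-like cells. Pparg, Fabp4 and Cd36 were highest in endothelial-like cells, and Cebpd and Adipoq in fibroblast-like cells. The class on top was the same for all 10 genes when each cell was given equal weight. Of the 40 pairs of neighbours in these orders, 15 were apart in the same direction in 6 of 6 libraries, the smallest exact sign-flip permutation p that 6 libraries allow (two-sided, p = 0.03125, adjusted p = 0.0833). Endothelial-like over macrophage-like Fabp4 was such a pair, by 5.80 on the log2 scale, and so were macrophage-like over endothelial-like Apoe, by 4.96, and fibroblast-like over myogenic-like Cebpd, by 1.30. Endothelial-like and macrophage-like Pparg were apart by 0.50, in 4 of 6 libraries (exact p = 0.156), and did not differ beyond their spread. Nor did Lpl in macrophage-like and fibroblast-like cells, which were apart by 0.79 in 4 of 6 libraries (exact p = 0.156).

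**Figure D1:**
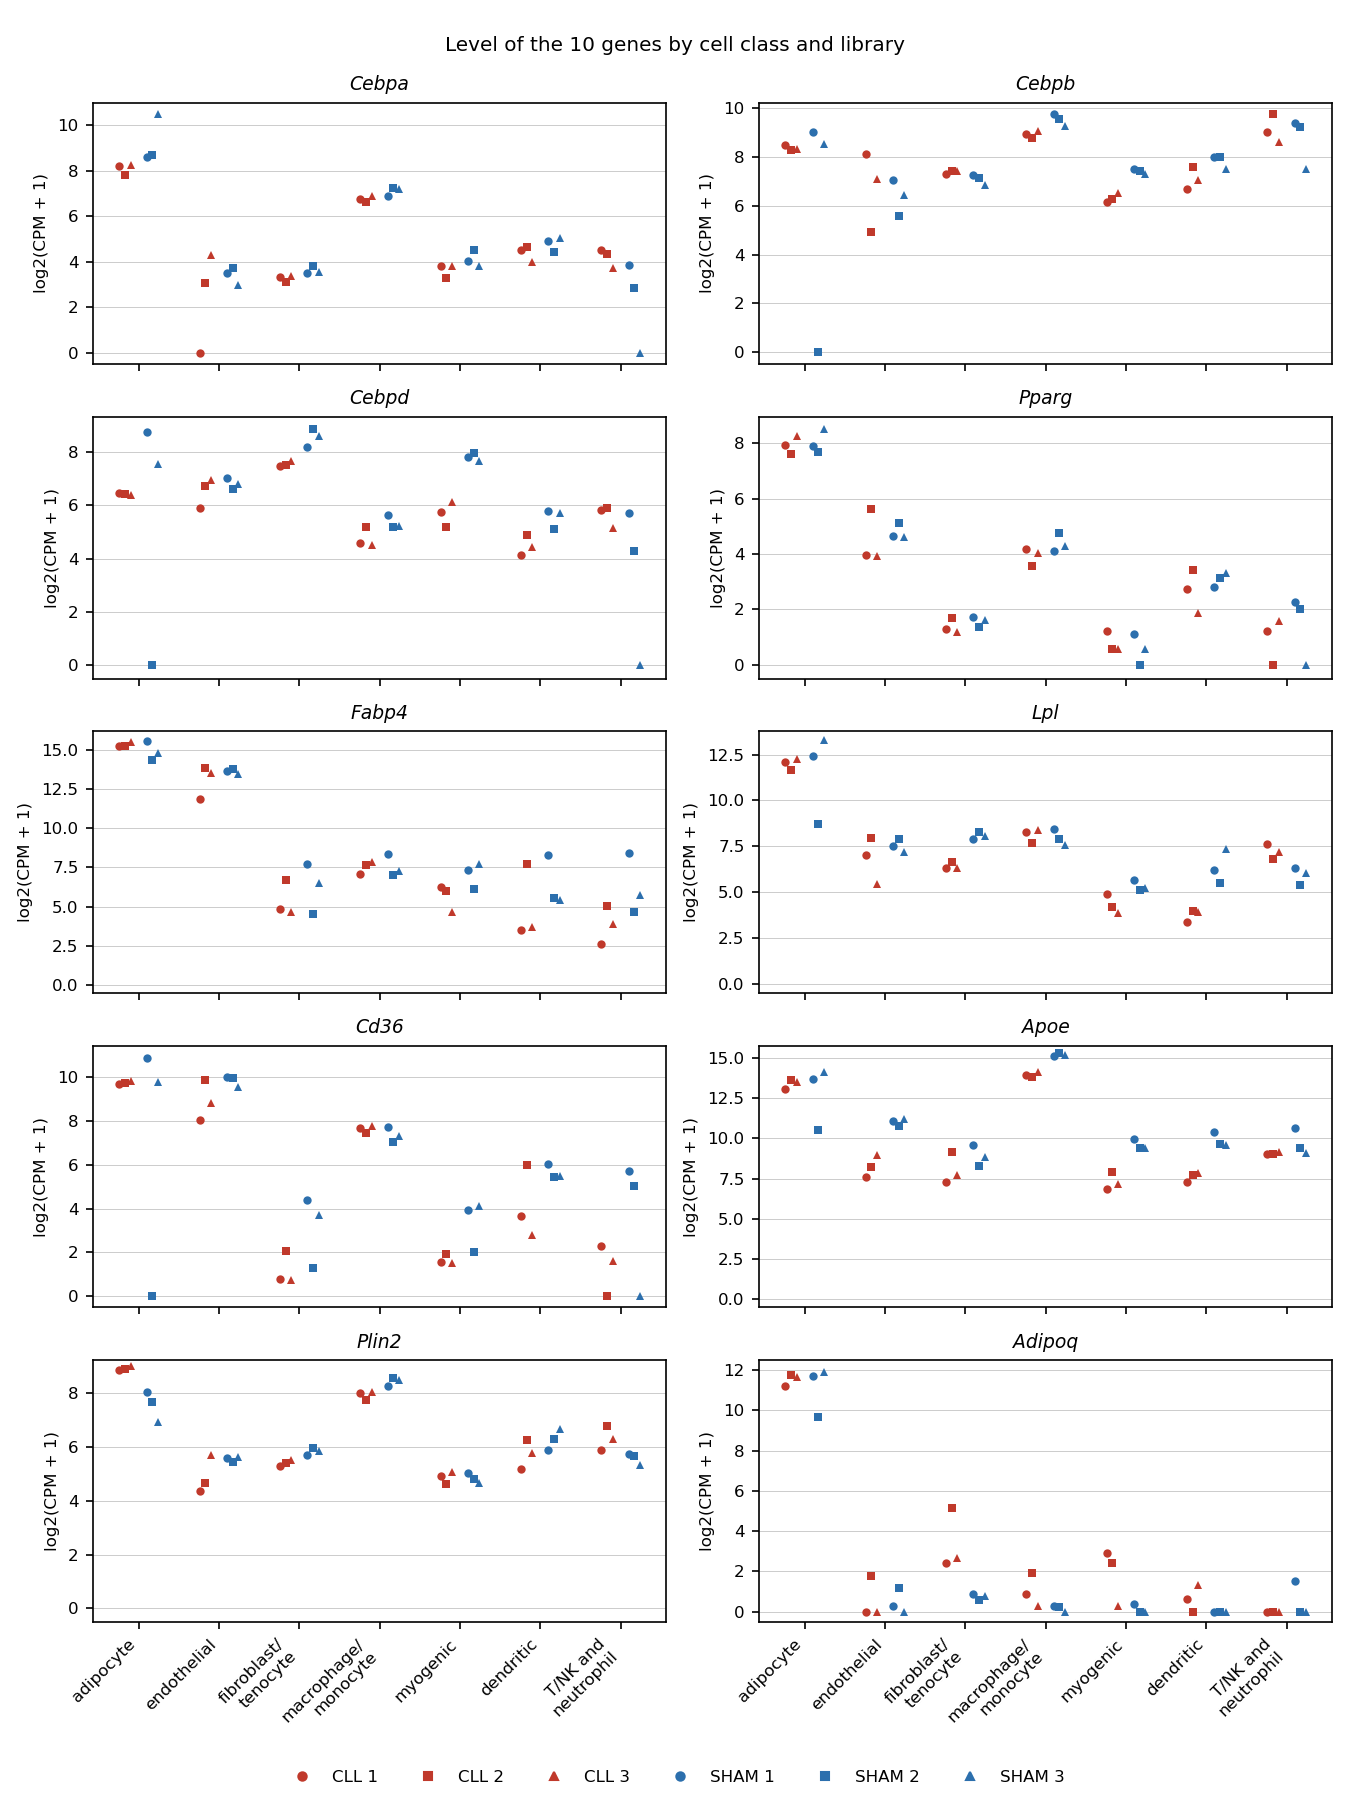
Level of each of the 10 genes, as log2(CPM + 1), in 7 cell classes (horizontal axis); each point is 1 library, red for CLL and blue for SHAM. Adipocyte-like cells carried the highest Fabp4, between 21001 and 47439 CPM, and macrophage-like Apoe lay between 14649 and 17462 CPM in CLL and between 35544 and 41074 CPM in SHAM; the 3 SHAM adipocyte points rest on 4, 3 and 1 cells.

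Each gene had close companions over the 50 class-by-library sums, among 5769 genes with a mean of at least 20 CPM. These Pearson correlations are a description, since the sums share libraries and depth. Cebpa and Plin2 ran with each other (r = 0.886), and Fabp4 and Cd36 did so too (r = 0.821). The gene most like Pparg was also Cd36 (r = 0.816). Adipoq ran with the adipocyte genes Cfd (complement factor D, r = 0.932), Mrap (r = 0.907) and Plin1 (perilipin 1, r = 0.893). Apoe ran with the lysosomal protease gene Ctsb (r = 0.881), the folate receptor gene Folr2 (r = 0.865) and the selenium carrier gene Selenop (r = 0.864), Cebpd with the thyroid hormone receptor gene Thra (r = 0.900), Cebpb with Rabgef1 (r = 0.791) and Lpl with Lgals3bp (r = 0.719).

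The sequence just before the start of 3 of the genes whose levels the results turn on is given here to show which promoter motifs it holds, 250 bases each from RefSeq on build GRCm38.p6, written 5′ to 3′ on the gene's own strand. They are Cebpb (chr2:167688665-167688914, plus strand), Apoe (chr7:19699189-19699438, minus strand) and Adipoq (chr16:23146286-23146535, plus strand). Both strands were searched for TATAAA (a core promoter element), TGACG (the core of a cAMP response element), CCAAT (the box bound by NF-Y) and the direct repeat of the PPAR response element. Matches are in capitals: 3 of TGACG, with 1 on the opposite strand (CGTCA), before Cebpb, and 3 of CCAAT, with 2 on the opposite strand (ATTGG), before Adipoq.
Cebpb: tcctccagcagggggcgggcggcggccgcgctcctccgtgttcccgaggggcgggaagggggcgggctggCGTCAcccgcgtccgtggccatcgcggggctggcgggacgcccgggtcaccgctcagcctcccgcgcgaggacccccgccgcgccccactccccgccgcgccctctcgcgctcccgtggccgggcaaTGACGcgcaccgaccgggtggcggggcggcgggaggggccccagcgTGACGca
Apoe: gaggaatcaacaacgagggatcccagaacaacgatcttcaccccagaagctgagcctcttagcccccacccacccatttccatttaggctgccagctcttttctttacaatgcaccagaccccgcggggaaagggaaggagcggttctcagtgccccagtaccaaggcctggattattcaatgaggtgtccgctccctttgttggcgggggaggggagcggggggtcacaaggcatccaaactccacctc
Adipoq: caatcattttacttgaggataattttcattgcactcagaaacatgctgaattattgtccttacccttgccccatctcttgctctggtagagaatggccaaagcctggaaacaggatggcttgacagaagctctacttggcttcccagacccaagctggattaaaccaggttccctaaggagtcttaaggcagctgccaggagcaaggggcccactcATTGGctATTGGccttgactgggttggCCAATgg
The TGACG matches before Cebpb begin 180, 53 and 7 bases before the start, and the CCAAT matches before Adipoq 34, 27 and 7 bases before it. None of these was found before Apoe. Of 32851 windows of this length before genes, 17.8% held TGACG, 33.8% CCAAT, 12.4% TATAAA and 0.0335% the PPAR repeat.

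Whether partial ablation of monocytes moved the 10 genes was tested in each class with edgeR's quasi-likelihood test on UMIs summed per library, adjusted over all genes of the class (called at adjusted p under 0.05). Myogenic-like cells had the most members lower in CLL: Cebpd, Cebpb, Apoe, Cd36 and Lpl, 5 of the 8 tested, and none higher, where 13.1% of all genes were called and 6.72% were lower. In fibroblast-like cells 3 of 10 were lower (Lpl, Cebpd and Cd36) and 2 higher (Cebpb and Adipoq), beside 26.1% of all genes, 13.6% lower and 12.5% higher. In macrophage-like cells 1 of 9 was lower, beside 3.83% of all genes (2.37% lower), and in endothelial-like cells 1 of 9, beside 0.396% (0.321% lower); in both it was Apoe. The median log2 fold of the members tested was -1.15 in myogenic-like, -0.47 in fibroblast-like, -0.46 in macrophage-like and -0.18 in endothelial-like cells, while that of all genes lay between -0.02 and -0.01. Adipocyte-like cells could not be tested, because SHAM libraries held 4, 3 and 1 of them.

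The 2 early factors fell together in myogenic-like cells, the muscle stem cells and their offspring, which carried Pax7, Myog and Cdh15. Cebpd stood at 52.1, 35.4 and 69.3 CPM in CLL 1 to 3 and at 222, 249 and 200 CPM in SHAM 1 to 3. All CLL libraries lay below all SHAM libraries. The fold was -1.96 ± 0.21 (log2, SE; edgeR adjusted p = 0.000278). Cebpb stood at 71.2, 76.6 and 90.9 CPM in CLL and at 183, 173 and 159 CPM in SHAM. The groups again did not overlap, and the fold was -0.99 ± 0.14 (edgeR adjusted p = 0.00128). Without CLL 2 and SHAM 3 the folds were -1.84 for Cebpd (adjusted p = 0.00171) and -1.02 for Cebpb (adjusted p = 0.0104). With every cell thinned to 1000 UMIs, the share of myogenic-like cells with a Cebpd UMI was 4.48%, 2.82% and 5.65% in CLL and 18.7%, 19.0% and 15.4% in SHAM (exact permutation p = 0.10, two-sided, the smallest that 3 against 3 allows). Without thinning it was 38.7%, 9.01% and 40.2% against 42.9%, 71.4% and 65.5%, at median depths of 1411 to 16534.5 UMIs, and thinning left out 4, 163 and 22 shallower cells in CLL and 90, 2 and 6 in SHAM. Shares are set here and later beside those of T, NK and neutrophil cells, called the comparison class. It held 15 cells in SHAM 3 and 32 to 312 elsewhere, and whether it lacks these genes was not tested: its Cebpb was the highest of any class in CLL 1 and CLL 2, and its Lpl was higher in each CLL than in each SHAM library. Its thinned share for Cebpd was 3.46% to 6.50% in CLL and 0% to 3.50% in SHAM at median depths of 1356 to 6702.5 UMIs, so the CLL myogenic-like shares were close to it. Cebpa, at 8.62 to 13.2 CPM in CLL and 12.8 to 21.6 CPM in SHAM, was not called (-0.31 ± 0.25, edgeR adjusted p = 0.45; called at -0.95, adjusted p = 0.0316, with cluster 9 put back into the class), and Pparg, with 14 UMIs in CLL and 9 in SHAM, was too low to test.

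Of 13 other genes of the C/EBP circuit tested in myogenic-like cells (relatives, inducers and glucocorticoid targets), 5 fell, 8 were not called and none rose, beside 6.72% of all genes lower: Socs3 (the feedback inhibitor of cytokine signalling, 48.0 to 60.4 against 176 to 228 CPM), Trib1, Il6, Nr3c1 and Il6st. Their median log2 fold was -0.47, beside -0.02 for all genes. Among 15 genes of the immediate-early and dissociation response, 9 fell and none rose, beside the same 6.72%, Zfp36, Egr1 and Nr4a1 with the smallest p, and their median was -0.92. Their summed level was 2365, 2567 and 2790 CPM in CLL and 5215, 5096 and 4110 CPM in SHAM. This list marks a response that enzymatic digestion can also set off, and its part in the fall of Cebpb and Cebpd was not tested. The level of Pax7, a gene of the stem cells among them, was 84.5 to 103 CPM in CLL and 177 to 182 CPM in SHAM, and the part of the mix of myogenic stages was not tested either.

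**Figure D2:**
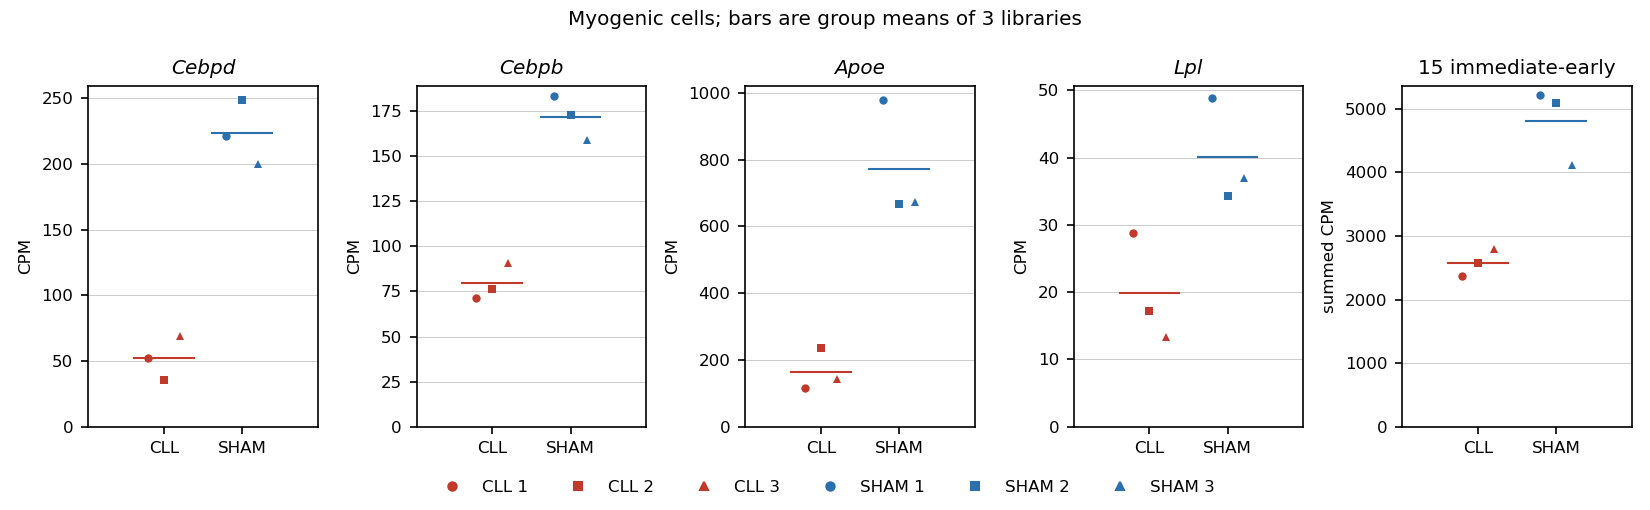
CPM of Cebpd, Cebpb, Apoe and Lpl, and the summed CPM of 15 immediate-early and dissociation genes, in myogenic-like cells; points are libraries and bars the means of 3. In each panel the 3 CLL libraries lie below the 3 SHAM libraries, for Cebpd between 35.4 and 69.3 CPM against 200 to 249 CPM.

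In fibroblast-like cells the same 2 factors parted. Cebpd stood at 178, 182 and 199 CPM in CLL and at 290, 466 and 384 CPM in SHAM. The groups did not overlap, and the fold was -0.94 ± 0.18 (edgeR adjusted p = 0.00561). Without CLL 2 and SHAM 3, the libraries that stood apart, it was -0.90 (adjusted p = 0.0562), and this was the 1 of 17 alternatives in which the call was lost. Cebpb stood at 157, 171 and 173 CPM in CLL and at 154, 140 and 115 CPM in SHAM. It was higher in CLL by 0.39 ± 0.13 (edgeR adjusted p = 0.0461), a small difference whose call was lost in 10 of 17 alternatives (adjusted p up to 0.191), among them leaving out any CLL library or SHAM 2 or SHAM 3. Cebpa (7.51 to 9.29 against 10.3 to 13 CPM, -0.29 ± 0.17, edgeR adjusted p = 0.228) and Pparg (1.28 to 2.18 against 1.58 to 2.28 CPM, -0.20 ± 0.28, edgeR adjusted p = 0.635) were not called. Of 15 C/EBP relatives, inducers and glucocorticoid targets, 1 was higher (Atf4) and 4 were lower (Trib2, Socs3, Tsc22d3 and Nr3c1), and of 15 immediate-early and dissociation genes 5 were higher and 2 lower (Zfp36 and Fos), beside 12.5% of all genes higher and 13.6% lower in this class.

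The fibroblast-like cells were a different mix in the 2 groups. Cluster 7, led by Clec3b and Dlk1 and carrying the lists of Ptn/Smoc2 and Cxcl14/C3 fibroblasts, made up 5%, 3.97% and 2.74% of the class in CLL and 59.8%, 56.9% and 47.2% in SHAM. Cluster 8, which carried the tenocyte list with Tnmd, made up 65.7%, 62.8% and 70.4% in CLL and 23.6%, 18.0% and 24.8% in SHAM. Over the rest of the class its mean log2 fold was 1.14 for the 5 tenocyte markers detected. The list of Lox/Cthrc1 activated fibroblasts came second, at 0.585, and Cthrc1 and Timp1 were among the leading genes of cluster 8 over all cells. Cluster 13, led by nuclear transcripts such as Meg3, held 12.7% to 23.5% in each library, and the cycling cluster 0 and the Pi16 adventitial cluster 19 had too few SHAM cells to test. Among the 3 clusters tested Cebpd was highest in cluster 7, at 367 to 461 CPM in CLL and 370 to 623 CPM in SHAM. Within clusters its fold was -0.28 ± 0.21 in cluster 7 (edgeR adjusted p = 0.68), -0.30 ± 0.17 in cluster 8 (adjusted p = 0.353) and -0.14 ± 0.26 in cluster 13 (adjusted p = 0.808), none of them called. Cebpb was higher in CLL within cluster 8, at 159, 169 and 177 CPM against 125, 117 and 83.5 CPM (0.69 ± 0.16, edgeR adjusted p = 0.032, beside 4.5% of all genes called there and 2.15% higher). That call was lost in 6 of 11 alternatives (adjusted p up to 0.162), among them leaving out any CLL library or SHAM 3. Of 15 immediate-early and dissociation genes, 5 were higher in CLL within cluster 8 and none lower, beside the same 2.15%. Their median log2 fold was 0.31, and their part in the rise of Cebpb was not tested.

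Among 20 other activators of fat cell formation, 9 were lower in CLL fibroblast-like cells and none higher, beside 13.6% of all genes lower and 12.5% higher, with a median log2 fold of -0.44 beside -0.02 for all genes. They included Klf5 (2.24 to 3.08 against 5.71 to 8.23 CPM), Zfp467 (-1.15 ± 0.20) and Ebf1 (239 to 287 against 444 to 509 CPM). Of 16 genes known as brakes, 8 were lower and 1, Twist1, higher, beside the same shares, with a median of -0.35. The largest fall among them was that of Dlk1, the preadipocyte factor, from 203, 311 and 463 CPM in SHAM to 29.4, 23.8 and 24.3 CPM in CLL (-3.56 ± 0.28, edgeR adjusted p = 0.000134). Dlk1 also fell within cluster 7 (-4.37 ± 0.44, adjusted p = 0.00141, beside 0.104% of all genes), cluster 8 (-1.40 ± 0.16, adjusted p = 0.00162) and cluster 13 (-2.50 ± 0.26, adjusted p = 1.33e-05, beside 4.88% of all genes and 2.47% lower). Of the activators, 0 of 16 were called within cluster 7 and 0 of 13 within cluster 13. In cluster 8, 2 of 18 were lower (Ebf1 and Zfp467) and 2 higher (Bmp4 and Klf4), beside 4.5% of all genes called. Of the brakes, 1 of 15 was lower in cluster 7, 2 of 15 in cluster 8 and 3 of 14 in cluster 13, where 2 were higher. The part of the changed mix of clusters in the class-wide counts was not tested.

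In macrophage-like cells none of the 4 factors passed the threshold. Cebpb stood at 496, 443 and 534 CPM in CLL and at 865, 759 and 628 CPM in SHAM. The groups did not overlap, but the fold of -0.62 ± 0.17 had an edgeR adjusted p of 0.0725. DESeq2, and edgeR with no filter on low counts, called it. Cebpd (21.8 to 35.5 against 35.3 to 48.8 CPM, -0.62 ± 0.17, edgeR adjusted p = 0.0672, called in 4 of 14 alternatives), Cebpa (96.7 to 116 against 118 to 147 CPM, -0.38 ± 0.18, edgeR adjusted p = 0.264) and Pparg (10.7 to 17.2 against 16.5 to 25.8 CPM, -0.46 ± 0.27, edgeR adjusted p = 0.373) were not called either. Within cluster 14, which carried the resident-type list with F13a1 and Mrc1, Cebpb was lower, at 444, 443 and 518 CPM against 1036, 671 and 734 CPM (-0.75 ± 0.17, edgeR adjusted p = 0.0326, beside 3.44% of all genes and 2.28% lower). Cebpd was lower within cluster 12, the MHC class II macrophage-like cells, at 20.8 to 29.2 CPM against 35.7 to 50.2 CPM (-0.85 ± 0.18, edgeR adjusted p = 0.0415, beside 1.47% of all genes and 0.903% lower). Each of these calls was lost in 7 of 11 alternatives, for Cebpb without any CLL library, SHAM 2 or SHAM 3 among them (adjusted p up to 0.188) and for Cebpd without CLL 1, CLL 3, SHAM 2 or SHAM 3 (adjusted p up to 0.306). Of 14 C/EBP relatives and inducers and 14 other activators tested in the whole class, none was called, and of 13 brakes 5 were lower, beside 2.37% of all genes, Dlk1, Klf3 and Hes1 with the smallest p.

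In endothelial-like cells none of the 4 factors was called. Cebpb stood at 279, 29.4 and 136 CPM in CLL and at 133, 47.3 and 86.1 CPM in SHAM, with overlapping groups (0.77 ± 0.52, edgeR adjusted p = 0.734). Pparg stood at 14.7, 49.0 and 14.1 CPM in CLL and at 24.3, 34.2 and 23.4 CPM in SHAM (0.30 ± 0.43, edgeR adjusted p = 0.901), and Cebpd at 58.7 to 122 against 95.5 to 128 CPM (-0.05 ± 0.25, adjusted p = 0.986). Cebpa stood at 0, 7.35 and 18.8 CPM against 10.3, 12.3 and 6.92 CPM (-0.06 ± 0.68, adjusted p = 1). Of the 8 lists of related genes, with 7 to 15 members tested in each, none had a member called there. The CLL libraries held only 39, 194 and 52 endothelial-like cells, with 204470 to 408392 UMIs. On simulated counts of this size the test recovered 13% of genes changed 2-fold and 70% of those changed 4-fold. The spread in that simulation was estimated without regard to group, so differences between CLL and SHAM counted as spread. The fall of Cebpd in myogenic-like cells differed from its change in endothelial-like cells by -1.76 ± 0.37 (edgeR with library as a block, adjusted p = 0.00835, beside 4.82% of all genes). It also differed from that in macrophage-like cells, by -1.23 ± 0.30 (adjusted p = 0.0311, beside 2.97%). The difference from fibroblast-like cells was not called (-0.98 ± 0.28, adjusted p = 0.102, beside 1.61% of all genes).

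Lpl was the member with the clearest fall in fibroblast-like cells. It stood at 79.9, 97.7 and 79.2 CPM in CLL and at 235, 310 and 263 CPM in SHAM. The groups were far apart (-1.57 ± 0.15, edgeR adjusted p = 0.000249), and the call held in 17 of 17 alternatives, with -1.67 without CLL 2 and SHAM 3. With cells thinned to 1000 UMIs, 7.51%, 9.86% and 7.38% of CLL and 20.8%, 22.2% and 19.6% of SHAM fibroblast-like cells had an Lpl UMI (exact permutation p = 0.10). In the comparison class the shares were 5.93% to 6.65% in CLL and 3.57% to 8.71% in SHAM; median depths before thinning were 1356 to 6702.5 UMIs there and 3971 to 25782 UMIs in fibroblast-like cells. Unthinned, 43.8% to 56.6% of CLL and 45.1% to 70.2% of SHAM fibroblast-like cells had one. Like Cebpd, Lpl was highest in cluster 7 among the 3 clusters tested, at 217, 242 and 171 CPM in CLL and 352, 425 and 454 CPM in SHAM. There the groups did not overlap, with a fold of -0.93 ± 0.19 that missed the threshold (edgeR adjusted p = 0.065) but passed it with DESeq2, with a replicate block and with no filter on low counts. In cluster 8 it stood at 70.5 to 97.6 against 77.0 to 143 CPM (-0.22 ± 0.23, edgeR adjusted p = 0.662), and in cluster 13 at 62.7 to 77.7 against 95.7 to 147 CPM (-0.69 ± 0.21, adjusted p = 0.0687). The part of the changed mix of clusters in the class-wide fall was not tested.

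**Figure D3:**
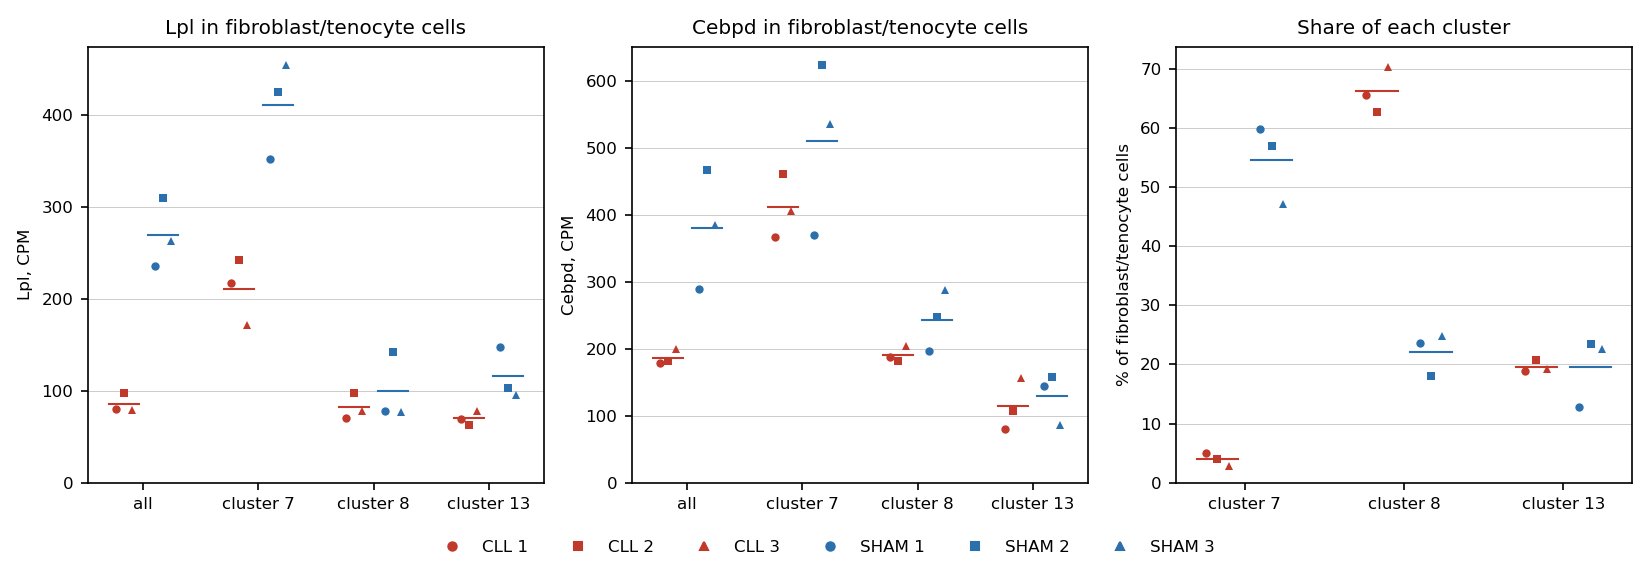
Lpl (left) and Cebpd (middle) in CPM in all fibroblast-like cells and in clusters 7, 8 and 13, and the share of each cluster in the class (right); points are libraries, red for CLL and blue for SHAM, and horizontal bars the means of 3. Of these clusters both genes were highest in cluster 7, which made up 2.74% to 5% of the class in CLL and 47.2% to 59.8% in SHAM.

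In macrophage-like cells Lpl stood at 310, 203 and 332 CPM in CLL and at 347, 240 and 187 CPM in SHAM, with overlapping groups (0.14 ± 0.25, edgeR adjusted p = 0.804). Its change there differed from that in fibroblast-like cells by 1.71 ± 0.42 (edgeR with library as a block, adjusted p = 0.023, beside 4.94% of all genes). Among macrophage-like cells Lpl was highest in cluster 11, which carried the lipid-handling list with Gpnmb and Trem2. Its level there was 526 to 578 CPM in CLL and 230 to 623 CPM in SHAM, against 60.4 to 241 CPM in clusters 12 and 14. In endothelial-like cells Lpl stood at 127, 245 and 42.3 CPM against 183, 233 and 146 CPM (-0.20 ± 0.39, edgeR adjusted p = 0.941). In myogenic-like cells it was lower, at 28.9, 17.2 and 13.3 CPM against 48.9, 34.3 and 37.1 CPM (-0.89 ± 0.26, edgeR adjusted p = 0.0448). That call was lost in 8 of 15 alternatives, among them leaving out CLL 2, CLL 3 or any SHAM library (adjusted p up to 0.151) and putting cluster 9 back into the class. The thinned shares of cells with an Lpl UMI, 1.47% to 2.12% in CLL and 3.67% to 5.03% in SHAM, are within or below the range of the comparison class.

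Fabp4 and Cd36, the fatty acid binder and the scavenger receptor, are genes of capillary endothelium, and endothelial-like cells carried both well above the comparison class. Fabp4 stood at 3712, 14623 and 12019 CPM in CLL and at 12775, 13755 and 11241 CPM in SHAM. The low value of CLL 1 rests on 39 cells, the other 5 libraries overlap, and there was no call (-0.18 ± 0.39, edgeR adjusted p = 0.95). At 1000 UMIs per cell, 73.5% to 94.7% of CLL and 96.0% to 98.0% of SHAM endothelial-like cells had a Fabp4 UMI, against 1.63% to 5.02% and 2.52% to 24.6% in the comparison class. Cd36 stood at 264, 911 and 447 CPM in CLL and at 1018, 977 and 747 CPM in SHAM, again with overlap (-0.59 ± 0.34, edgeR adjusted p = 0.669). The thinned share of endothelial-like cells with a Cd36 UMI was 22.8%, 45.3% and 30.3% in CLL and 60.7%, 51.2% and 47.2% in SHAM (exact permutation p = 0.10), against 0% to 0.403% and 0% to 4.49% in the comparison class. Unthinned shares were 43.6% to 54.6% and 75.5% to 82.0%, at median depths of 1515.5 to 6960.0 UMIs, and thinning left out 2, 55 and 10 endothelial-like cells in CLL and 381, 12 and 3 in SHAM.

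In macrophage-like cells both uptake genes overlapped between the groups. Cd36 stood at 203, 172 and 214 CPM in CLL and at 209, 129 and 158 CPM in SHAM (0.26 ± 0.17, edgeR adjusted p = 0.426), and Fabp4 at 137, 202 and 233 CPM against 332, 128 and 151 CPM (-0.08 ± 0.29, edgeR adjusted p = 0.922). As with Lpl, levels were highest in the lipid-handling cluster 11: 379 to 439 and 279 to 423 CPM of Cd36, against 42.1 to 112 CPM in clusters 12 and 14, and 332 to 473 and 225 to 436 CPM of Fabp4. Cluster 11 made up 24.2%, 18.7% and 36.2% of the class in CLL and 23.3%, 17.8% and 31.1% in SHAM. The shares of clusters 12 and 14 did not overlap between the groups. Cluster 12 made up 28.8%, 15.6% and 28.0% in CLL and 55.8%, 66.0% and 51.1% in SHAM. Cluster 14 made up 47.0%, 65.7% and 35.8% in CLL and 20.9%, 16.2% and 17.8% in SHAM. The part of this changed mix in the class-wide values of macrophage-like cells was not tested. Of 19 other genes of fatty acid uptake, binding and activation, 1 was lower in the class, Gpihbp1, the capillary anchor of lipoprotein lipase, a share close to the 3.83% of all genes called (2.37% lower). Gpihbp1 was among the leading genes of the endothelial cluster 10. Of this list, 0 of 15 genes tested were called in endothelial-like cells. Those cells were 1.10%, 1.91% and 0.924% of kept cells in CLL and 13.4%, 15.5% and 2.84% in SHAM. The part of their transcripts in the fall of Gpihbp1 was not tested.

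In fibroblast-like and myogenic-like cells Cd36 was lower in CLL, at levels close to 0. It stood at 0.707, 3.17 and 0.662 CPM against 20.2, 1.46 and 12.1 CPM in fibroblast-like cells (-2.87 ± 0.75, edgeR adjusted p = 0.0197). In myogenic-like cells it stood at 1.94, 2.87 and 1.87 CPM against 14.1, 3.08 and 16.2 CPM (-2.31 ± 0.47, edgeR adjusted p = 0.00936). In both classes SHAM 2 lay near the CLL libraries. The comparison class had 3.90, 0 and 2.02 CPM in CLL and 51.5, 31.9 and 0 CPM in SHAM, and the thinned shares of fibroblast-like and myogenic-like cells with a Cd36 UMI, up to 1.85% and 2.13%, lay below its share in each library where that was above 0 and are not read as expression. Endothelial transcripts were higher in SHAM myogenic-like cells too: the summed level of 12 endothelial markers in myogenic-like cells was 10.3, 21.1 and 19.3 CPM in CLL and 89.3, 26.0 and 137 CPM in SHAM, and in fibroblast-like cells, with overlap, 86.0 to 101 against 92.0 to 169 CPM, with all 12 detected in fibroblast-like cells of every library. Their part in the fall of Cd36 was not tested. The fibroblast-like call was lost without CLL 1, CLL 3 or SHAM 1 (adjusted p up to 0.0895) and with clusters 3 and 5 put back (-2.12, adjusted p = 0.112). The myogenic-like one was lost without CLL 3 (adjusted p = 0.068) and with cluster 9 put back (-1.49, adjusted p = 0.121). Fabp4 was not called in either class (-0.98 ± 0.67, adjusted p = 0.312, and -1.31 ± 0.41, adjusted p = 0.0559, both edgeR), though in myogenic-like cells it passed in 3 alternatives, without SHAM 2 among them. The change of Cd36 in macrophage-like cells differed from that in fibroblast-like cells by 3.22 ± 0.68 (edgeR with library as a block, adjusted p = 0.00947).

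Of 20 other uptake genes tested in fibroblast-like cells, 4 were higher in CLL, among them Fabp5 (a relative of Fabp4, 627 to 991 against 38.5 to 242 CPM), Slc27a3 and Acsl4. Another 3 were lower, Msr1, Gpihbp1 and Lipa, and the median of the list was 0.18. These shares lie near the 12.5% of all genes higher and 13.6% lower in the class. Fabp5 was also higher in myogenic-like cells (1.05 ± 0.20, edgeR adjusted p = 0.00751), where 3 of 19 fell, Slc27a1, Gpihbp1 and Vldlr, beside 6.72% of all genes. The part of endothelial transcripts in the fall of Gpihbp1 was not tested in either class.

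Among the 5 classes with at least 20 cells in every library, Apoe was most abundant in macrophage-like cells, and it was lower in CLL in macrophage-like, endothelial-like and myogenic-like cells. In macrophage-like cells it stood at 15558, 14649 and 17462 CPM in CLL and at 35544, 41074 and 37133 CPM in SHAM. The groups were separated by a wide gap (-1.28 ± 0.25, edgeR adjusted p = 0.0275). The fall was called in each of the 3 macrophage clusters: -1.27 ± 0.20 in the lipid-handling cluster 11 (edgeR adjusted p = 0.0111, beside 2.29% of all genes and 1.39% lower), -1.15 ± 0.23 in the MHC class II cluster 12 (adjusted p = 0.0325) and -1.14 ± 0.18 in the resident-type cluster 14 (adjusted p = 0.00898). These calls were lost without any CLL library in clusters 11 and 12, without SHAM 2 or SHAM 3 in cluster 12 and without CLL 1 in cluster 14 (adjusted p up to 0.306). Whole-class Apoe kept its direction in 14 of 14 alternatives, between -1.39 and -1.14, but its call was lost in 7, among them leaving out any CLL library, SHAM 2 or SHAM 3 (adjusted p up to 0.176); without both CLL 2 and SHAM 3 it was -1.20 (adjusted p = 0.163). Among 11 other apolipoproteins and genes of sterol efflux, 3 were lower and none higher, beside 2.37% of all genes lower: Abcg1 (a sterol exporter, 71.7 to 77.7 against 133 to 182 CPM), Apoc1 (3.64 to 4.68 against 10.4 to 19.6 CPM) and Mylip. The median of the list was -0.64, beside -0.01 for all genes.

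In endothelial-like cells Apoe stood at 191, 301 and 489 CPM in CLL and at 2126, 1711 and 2336 CPM in SHAM. The groups did not overlap (-2.51 ± 0.30, edgeR adjusted p = 0.00104), but with doublets kept the fold was -1.33 and not called (adjusted p = 0.634). Without CLL 2 and SHAM 3 it was -2.35 (adjusted p = 0.0481). The comparison class had 519, 529 and 579 CPM in CLL and 1599, 681 and 548 CPM in SHAM, so endothelial-like cells lay below it in CLL and above it in SHAM. At 1000 UMIs per cell, 19.8%, 22.6% and 34.7% of CLL and 62.2%, 39.2% and 58.1% of SHAM endothelial-like cells had an Apoe UMI, against 29.1%, 26.1% and 28.1% and 69.7%, 31.4% and 45.2% in the comparison class; the shares of CLL 1, CLL 2 and SHAM 1 are below it and are not read as expression. Unthinned, they were 33.0% to 53.8% and 81.8% to 96.6%, against 50% to 65.6% and 78.0% to 82.7%. Transcripts of other cells moved with it. The 14 macrophage markers summed to 558, 208 and 296 CPM in CLL endothelial-like cells, with 2, 2 and 5 of them at 0, and to 1571, 1277 and 2222 CPM in SHAM, with none at 0. The 10 mural markers summed to 245, 257 and 259 CPM in CLL and 1605, 1154 and 1871 CPM in SHAM, with the pericyte gene Rgs5 at 0 to 75.9 against 667 to 1044 CPM. The part of these cells in the endothelial-like fall of Apoe was not tested. The fall exceeded that in fibroblast-like cells by -1.97 ± 0.48 (edgeR with library as a block, adjusted p = 0.0196, beside 5.43% of all genes).

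In myogenic-like cells Apoe stood at 115, 236 and 144 CPM in CLL and at 977, 667 and 673 CPM in SHAM. The groups did not overlap, and the fold was -2.10 ± 0.25 (edgeR adjusted p = 0.000586, called in 15 of 15 alternatives). Without CLL 2 and SHAM 3 it was -2.54 (adjusted p = 0.000468), and with cluster 9 put back -3.11 (adjusted p = 0.016). Thinned, 10.8%, 21.7% and 13% of CLL cells had an Apoe UMI, below the comparison class, and 58.9%, 39.9% and 49.5% of SHAM cells did, below it in SHAM 1 and above it in SHAM 2 and SHAM 3. The macrophage markers summed to 76.7, 180 and 116 CPM in CLL and to 522, 102 and 309 CPM in SHAM, so SHAM 2 had high Apoe with macrophage markers in the range of CLL. Their part was not tested. Of 7 other sterol efflux genes tested in the same cells 5 fell, beside 6.72% of all genes, with a median of -0.85: Abca1 (8.83 to 9.10 against 32.6 to 51.5 CPM), Abcg1, Pltp, Apod and Mylip.

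In fibroblast-like cells Apoe was not called. It stood at 157, 573 and 214 CPM in CLL and at 764, 307 and 452 CPM in SHAM, with CLL 2 inside the SHAM range (-0.59 ± 0.43, edgeR adjusted p = 0.338), and it was called without CLL 2 (-1.32, adjusted p = 0.0302). Abca1, Apod and Abcg1 were the 3 efflux genes with the smallest p, all lower in CLL; 5 of 10 tested fell and 1, Lrp8, rose, beside 13.6% of all genes lower and 12.5% higher, with a median of -0.53. Within cluster 13 Apoe was lower, at 154, 261 and 270 CPM against 1584, 336 and 800 CPM (-1.92 ± 0.36, edgeR adjusted p = 0.00386, and -2.10 with adjusted p = 0.0723 without CLL 2 and SHAM 3), together with Fabp4 (-2.23 ± 0.40, adjusted p = 0.00278) and Cd36 (-4.26 ± 0.64, adjusted p = 0.000584). In the same cells the macrophage markers summed to 152 to 288 CPM in CLL and 258 to 1290 CPM in SHAM, and their part was not tested.

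**Figure D4:**
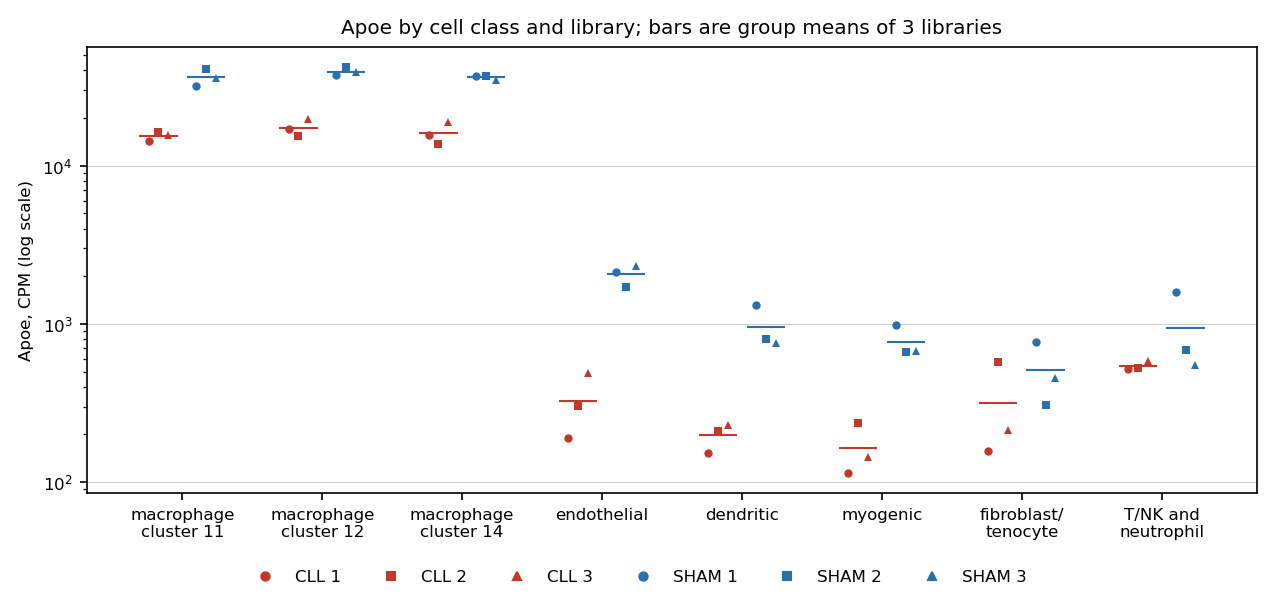
Apoe in CPM (log axis) in 3 macrophage-like clusters and 5 other classes; points are libraries, red for CLL and blue for SHAM, and horizontal bars the means of 3. In each macrophage-like cluster, and in endothelial-like and myogenic-like cells, the 3 CLL libraries lie below the 3 SHAM libraries, and in fibroblast-like cells the groups overlap.

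Dendritic-like cells were tested as well, though they were not among the classes first chosen for these genes. In them 2 of 9 members were lower in CLL, Apoe and Lpl, and none higher, beside 1.3% of all genes called and 0.814% lower. Apoe stood at 154, 212 and 231 CPM in CLL and at 1320, 799 and 752 CPM in SHAM, with no overlap (-2.17 ± 0.24, edgeR adjusted p = 0.00199). Lpl stood at 9.16, 14.4 and 13.9 CPM in CLL and at 72.4, 44.1 and 162 CPM in SHAM, again with no overlap (-2.76 ± 0.44, edgeR adjusted p = 0.009). The Apoe call held in 11 of 11 alternatives, and that of Lpl was lost without CLL 1 (-2.56, adjusted p = 0.184) or CLL 3 (-2.99, adjusted p = 0.174). In the comparison class Apoe was at 519 to 579 and 548 to 1599 CPM and Lpl at 110 to 196 and 41.0 to 80.1 CPM. Dendritic-like Apoe thus lay below that class in each CLL library and in SHAM 1, and above it in SHAM 2 and SHAM 3. Dendritic-like Lpl lay below it in each CLL library. The part of transcripts of other cells in these 2 falls was not tested.

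Plin2, the coat of lipid droplets, was highest in macrophage-like cells among the same 5 classes (adipocyte-like cells, not among them, had more in CLL), at 255, 214 and 262 CPM in CLL and 307, 385 and 365 CPM in SHAM. The groups did not overlap, but the fold of -0.55 ± 0.19 was not called (edgeR adjusted p = 0.132). Cluster 11 had the highest level, 363 to 406 and 402 to 571 CPM, and no call (-0.30 ± 0.18, edgeR adjusted p = 0.44). In the resident-type cluster 14 Plin2 was lower, at 146, 135 and 143 CPM against 232, 279 and 291 CPM (-0.88 ± 0.16, edgeR adjusted p = 0.0154), a call lost in 6 of 11 alternatives, among them leaving out any CLL library or SHAM 2 or SHAM 3 (adjusted p up to 0.147). In fibroblast-like cells it stood at 38.3 to 45.5 against 51.6 to 61.6 CPM (-0.34 ± 0.12, adjusted p = 0.0644), in endothelial-like cells at 19.6 to 51.7 against 43.2 to 49.2 CPM (-0.45 ± 0.32, adjusted p = 0.753) and in myogenic-like cells at 23.5 to 32.8 against 24.2 to 32.3 CPM (0.18 ± 0.16, adjusted p = 0.495), all by edgeR and none called. Of 17 other genes of droplets, triglyceride synthesis and lipolysis tested in fibroblast-like cells, 3 were higher (Dgat2, Hilpda and Lpin2) and 3 lower (Lpin1, Pnpla2 and Fitm1), shares near the 12.5% and 13.6% of all genes. Lpin1, a phosphatidate phosphatase, was lower in macrophage-like (-0.95 ± 0.20, adjusted p = 0.0324) and myogenic-like cells as well (-0.997 ± 0.21, adjusted p = 0.012).

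Adipoq marked a small class of adipocyte-like cells, clustered without it and led by Car3, Cfd, Hp and Scd1, with the acute-phase genes Lcn2 and Saa3 among its leading genes. The class held 17, 629 and 22 cells in CLL and 4, 3 and 1 in SHAM, so 1 library, CLL 2, held 629 of its 676 cells. Of all cells kept in a library, adipocyte-like cells were 0.479%, 6.20% and 0.391% for CLL 1 to 3 and 0.0207%, 0.162% and 0.0162% for SHAM 1 to 3. Every CLL library lay above every SHAM library (exact permutation p = 0.10), and the difference of the means was 2.29 percentage points, or 0.368 without CLL 2. In CLL all 13 adipocyte markers other than the 10 genes were detected in each library, Plin1 at 644 to 814 CPM and Cfd at 3994 to 8035 CPM.

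The 10 genes in CLL adipocyte-like cells were alike from library to library. Adipoq stood at 2334, 3432 and 3200 CPM, with UMIs in 15 of 17, 538 of 629 and 22 of 22 cells. Fabp4 stood at 39566, 38146 and 47268 CPM, Lpl at 4346, 3247 and 4877 CPM and Cd36 at 808, 831 and 893 CPM. The late factors were at 297, 220 and 304 CPM (Cebpa) and 244, 197 and 306 CPM (Pparg), and the early ones at 362, 316 and 326 CPM (Cebpb) and 86.9, 85.1 and 82.3 CPM (Cebpd). Apoe stood at 8526, 12598 and 11427 CPM and Plin2 at 468, 484 and 514 CPM. Fibroblast markers summed to 7760 to 12136 CPM in these cells. In SHAM the sums rest on 41759, 4857 and 16255 UMIs; Adipoq was at 3353, 824 and 3814 CPM and Pparg at 239, 206 and 369 CPM, and no comparison was made.

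Adipoq transcripts were also found in fibroblast-like cells, at 4.26, 34.6 and 5.39 CPM in CLL and at 0.825, 0.486 and 0.726 CPM in SHAM. The groups did not overlap (4.45 ± 0.95, edgeR adjusted p = 0.00861). Of the 17 alternatives of this class, 16 gave an adjusted p for Adipoq, and the call held in those 16. Without CLL 2 and SHAM 3 the fold was 2.92 (edgeR adjusted p = 0.00534). The SHAM values rest on 13, 4 and 6 UMIs. At least 1 UMI was present in 28 of 1840 (1.52%), 235 of 2317 (10.1%) and 69 of 2806 cells (2.46%) in CLL and in 8 of 3431 (0.233%), 1 of 439 (0.228%) and 2 of 322 cells (0.621%) in SHAM. At 1000 UMIs per cell the shares were 0.263%, 3.03% and 0.470% against 0.0747%, 0.0261% and 0.0404% (exact permutation p = 0.10). In CLL most positive cells lay in the tenocyte-list cluster 8, the largest of the class there: 24, 193 and 61 cells, or 1.99%, 13.3% and 3.09% of it. In the cycling cluster 0, with 4 of 146, 26 of 216 and 6 of 186 positive, the shares were about as high. In SHAM cluster 8 held 1 positive cell in each library, and cluster 7 held 7 of those of SHAM 1. Within cluster 8 Adipoq stood at 4.67, 39.5 and 5.23 CPM against 0.390, 1.63 and 1.29 CPM (4.13 ± 1.23, edgeR adjusted p = 0.0889), a difference that passed in 5 of 11 alternatives, DESeq2 and the replicate block among them. The 5 cells richest in Adipoq held 64.0%, 15.9% and 29.4% of the class's UMIs in CLL.

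Adipocyte-like cells and Adipoq in fibroblast-like cells were both highest in CLL 2. In the comparison class of that library 0 of 32 cells had an Adipoq UMI, which allows a share of up to 9.38%, and in CLL 1 and CLL 3 0 of 96 and 0 of 100 cells, which allows up to 3.13% and 3.00%. In macrophage-like cells 10 of 697 (1.43%) in CLL 2, 6 of 732 (0.820%) in CLL 1 and 2 of 1143 (0.175%) in CLL 3 had one. Of the other adipocyte genes, Cfd was higher in CLL fibroblast-like cells, at 0.999, 12.6 and 1.49 CPM against 0.190, 0 and 0.726 CPM (4.20 ± 1.26, edgeR adjusted p = 0.0345). Plin1 stood at 0.171, 0.461 and 0.236 CPM against 0, 0.243 and 0.363 CPM, and the 13 adipocyte markers summed to 8.60, 25.2 and 10.3 CPM against 12.8, 11.2 and 22.2 CPM, with overlapping groups. The part of adipocyte RNA in these counts was not tested. Of 13 tested genes for products and receptors of mature adipocytes, 4 were higher (Rbp4, Nnmt, Fasn and Cfd) and 3 lower (Thrsp, Cdh13 and Scd1), beside 12.5% and 13.6% of all genes.

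**Figure D5:**
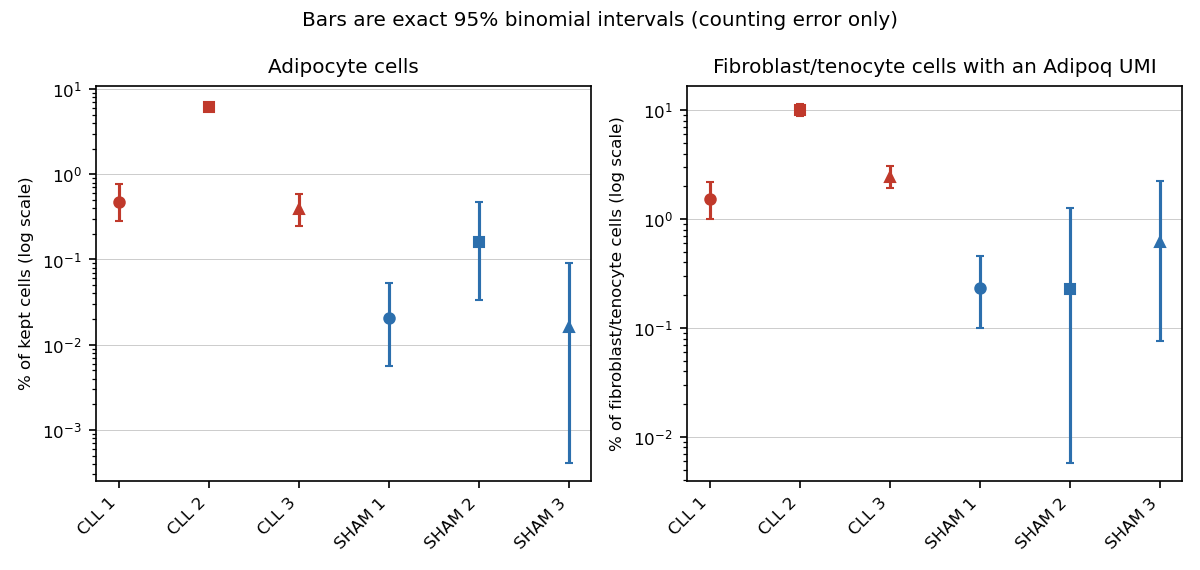
Adipocyte-like cells as a percentage of kept cells (left) and fibroblast-like cells with an Adipoq UMI as a percentage of that class (right), by library on log axes; bars are exact binomial intervals at 95% confidence, for counting error only. On the left all 3 CLL libraries, from 0.391% to 6.20%, lie above all 3 SHAM libraries, and on the right CLL runs from 1.52% to 10.1% and SHAM from 0.228% to 0.621%.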

How the data were processed

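The authors deposited raw UMI counts per gene and cell barcode for each of 6 single-cell RNA-seq libraries of quadriceps, a droplet method that reads the 3′ ends of transcripts; per the submitters' processing notes they were made with Cell Ranger 6.1.2 on build mm10. Every deposited barcode held at least 500 UMIs. Of 60282 barcodes, barcodes below 300 genes or above 15% mitochondrial UMIs were dropped, and 7032 presumed doublets were removed, at a rate of 0.8% per 1000 barcodes. The 46685 cells were clustered without the 10 genes (scanpy 1.11.5, 2000 variable genes, 30 components, 15 neighbours, resolution 1) into 21 clusters. A marker list could name a cluster when at least 3 of its markers were each detected in at least 10% of the cells. The mean log2 fold of the detected markers over the other cells had to be at least 0.5. Rules that kept clusters with 3 leading genes of another class, or of low quality, out of a class were set after the clusters were seen, and were not applied evenly. The low-quality rule was applied once: cluster 13 stayed in the fibroblast class, although mt-Nd6, AY036118 and Lars2 were among its leading genes once cluster 3 was out, and with doublets kept the cluster most like it was left out. It was not applied to myogenic cluster 1, which differed from cluster 9 by such transcripts. The class without cluster 13 and the classes with their left-out clusters put back were alternatives chosen after seeing the data, as were those of dendritic-like cells. Counts were summed per class and library and tested with edgeR 4.0.16 (TMM scaling, its default filter on low counts, Benjamini-Hochberg adjustment at 0.05), CLL against SHAM, where every library held at least 20 cells. Differences between classes were tested in 1 edgeR model with library as a block. DESeq2 1.42.0, other scaling, no filter, a replicate block, libraries left out, other cell filters and single clusters were the alternatives. The test was tried on simulated data, with the spread of each gene estimated over all 6 libraries without regard to group. Differences between the groups thus counted as spread, so the recovery is not that of the test at the spread within groups. In fibroblast-like, endothelial-like, macrophage-like and myogenic-like cells the test recovered 22%, 13%, 40% and 27% of genes changed by a 2-fold difference and 65%, 70%, 85% and 81% of those changed by a 4-fold one, with 10, 8, 15 and 11 false calls. The design text calls the replicates independent mice, so p-values measure the spread between them. Intervals and the limit that a count of 0 allows (3 counts) cover counting error only.

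All 10 genes are reported in every class, with up to 3 genes per pathway list and class by smallest p and the closest genes by correlation; other genes named complete a count of 5 or fewer or mark a cell type, and were chosen after their values were seen. The members and lists were chosen with earlier results of these data known. Promoter sequences came from RefSeq on GRCm38.p6, the first 250 bases before the start. Of the other members, Cebpa had such a sequence too, and those of Pparg, Cd36 and Plin2 were not used because their start differed from the annotated gene start.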

Additional observations from a re-analysis of the deposited data

Results flagged for a closer look

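In 5 cases the change of a gene with CLL differed between cell classes by a test of that difference (edgeR on both classes, library as a block, adjusted over all genes), and each is given here with the libraries on which it rests.

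Cebpd fell more in myogenic-like than in endothelial-like cells, by -1.76 (adjusted p = 0.00835). The difference was -1.38 without CLL 2 (adjusted p = 0.0627) and -1.55 without both CLL 2 and SHAM 3 (adjusted p = 0.127), and called when any other single library was left out. Cebpd also fell more in myogenic-like than in macrophage-like cells, by -1.23 (adjusted p = 0.0311). That call was lost without CLL 1 (-1.26, adjusted p = 0.12), CLL 2 (-0.89, adjusted p = 0.138), SHAM 2 (-1.11, adjusted p = 0.0519), SHAM 3 (-1.26, adjusted p = 0.0943) or both CLL 2 and SHAM 3 (-0.93, adjusted p = 0.262).

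Lpl fell in fibroblast-like cells, and its change in macrophage-like cells differed from that fall by 1.71 (adjusted p = 0.023). It was not called without CLL 1 (1.57, adjusted p = 0.123), CLL 3 (1.49, adjusted p = 0.064), SHAM 3 (1.56, adjusted p = 0.0991) or both CLL 2 and SHAM 3 (1.88, adjusted p = 0.0505). Cd36 differed between the same classes by 3.22 (adjusted p = 0.00947), and was not called without CLL 1 (2.75, adjusted p = 0.0924) or CLL 3 (2.81, adjusted p = 0.111). The fibroblast-like Cd36 level was between 0.662 and 20.2 CPM.

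Apoe fell more in endothelial-like than in fibroblast-like cells, by -1.97 (adjusted p = 0.0196). The call was lost without CLL 2 (-1.41, adjusted p = 0.0547), SHAM 2 (-1.75, adjusted p = 0.0607), SHAM 3 (-1.74, adjusted p = 0.115) or both CLL 2 and SHAM 3 (-1.09, adjusted p = 0.33). Macrophage and mural transcripts moved with endothelial-like Apoe, as given above, and their part was not tested.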

How the results depend on the processing

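Of the calls of single members, dendritic-like cells included, 171 class values and 65 cluster values under the alternatives were again past the threshold, 37 and 44 were not, and none changed sign. Without cluster 13 each of the 5 fibroblast-like calls held. With clusters 3 and 5 put back those of Cebpb (adjusted p = 0.0568) and Cd36 were lost, and with cluster 9 put back the myogenic-like ones of Lpl and Cd36. The numbers of genes called moved more. Endothelial-like cells (37 genes) had 221 with no filter on low counts, 67 with DESeq2, 96 with a replicate block, 14 without both CLL 2 and SHAM 3, 15 with doublets kept and 16 to 49 when 1 library was left out. Fibroblast-like cells (3763) had 2077 without both libraries, 1278 without cells with 2 markers of another class and 2157 to 3494 without 1 library. Macrophage-like cells (442) had 1256 with no filter, 730 with DESeq2, 244 with a replicate block, 28 without both libraries and 43 to 893 without 1 library. Myogenic-like cells (1458) had 2277 with no filter, 946 with a replicate block, 894 without both libraries and 538 to 1368 without 1 library. The cause was not tested, beyond the fewer samples or cells of each. Whether the replicate numbers pair the mice cannot be told from these correlations. Deviations of same-numbered libraries correlated between -0.13 and 0.22. In endothelial-like cells they were 0.150, 0.219 and 0.0758 for numbers 1 to 3, each above the highest with another number (-0.00342, -0.0803 and -0.0356). In macrophage-like and myogenic-like cells each lay below the highest with another number. The adipocyte-like difference was 0.368 to 3.27 percentage points without 1 library.

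Values below were not called in the main test and changed sign. Myogenic-like Plin2 was -0.683 with cluster 9 put back. With at most 10% mitochondrial UMIs, endothelial-like Cebpa was 0.00751 and Cebpd 0.00648. Endothelial-like Pparg was -0.847 without both libraries and -0.0376 with doublets kept, Cebpb in fibroblast cluster 13 was 0.0643 with no filter, and Fabp4 in macrophage cluster 11 was -0.0967 without both libraries. With 1 library left out, the ranges in endothelial-like cells were -0.873 to 0.348 (Cebpa), -0.17 to 1.34 (Cebpb), -0.213 to 0.140 (Cebpd), -0.803 to 0.566 (Pparg), -0.589 to 0.196 (Fabp4) and -1.05 to 0.179 (Lpl). In macrophage-like cells they were -0.281 to 0.361 (Fabp4) and -0.0377 to 0.370 (Lpl), in macrophage cluster 11 -0.0220 to 0.384 (Fabp4) and -0.0173 to 0.549 (Lpl), in cluster 12 -0.268 to 0.0968 (Lpl) and in cluster 14 -0.344 to 0.142 (Cd36), -0.518 to 0.00467 (Lpl) and -0.207 to 0.494 (Pparg). In fibroblast cluster 8 they were -0.997 to 0.269 (Apoe), -2.82 to 0.794 (Cd36), -0.209 to 0.306 (Cebpa), -1.64 to 0.815 (Fabp4) and -0.384 to 0.165 (Lpl), and in cluster 13 -0.184 to 0.0738 (Cebpb) and -0.433 to 0.0703 (Cebpd).

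Endothelial-like cells numbered 39 to 194 per CLL library, and 13% of simulated 2-fold changes were recovered there, with the spread estimated without regard to group. Of the values of members that were not called, 10 in classes and 9 in single clusters passed the threshold under at least 1 alternative, those of Cebpb, Cebpd and Plin2 in macrophage-like, Fabp4 and Cebpa in myogenic-like, Apoe and Plin2 in fibroblast-like and Cebpd, Fabp4 and Cd36 in dendritic-like cells among them. Leaving out cells with markers of another class was possible in fibroblast-like cells only. Elsewhere too few cells carried fewer than 2 markers of another class. In SHAM 1 such cells were 18 of 2590 endothelial-like, 43 of 5981 macrophage-like and 5 of 1755 myogenic-like cells. In CLL 1 they were 0 of 39, 4 of 732 and 0 of 359. Among fibroblast-like cells they were 394 of 1840 in CLL 1 and 1283 of 3431 in SHAM 1.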

Other observations

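In mural-like cells, which were too few to test, Apoe stood at 135, 71.3 and 216 CPM in 19, 23 and 12 CLL cells and at 2464, 330 and 2054 CPM in 757, 95 and 30 SHAM cells. The myogenic-like Adipoq level of 6.58 CPM in CLL 1 rests on 44 UMIs in 3 of 359 cells, 42 of them in 1 cell.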
